A study of Homo sapiens with 36 samples.

Results

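Expression after 4 h of selumetinib was compared with its control in BT549 cells, on 6 of the 36 arrays of a study of MEK inhibition and loss of DUSP4 in breast cancer lines. The arrays are the 3 titled BT549 with selumetinib for 4 h and the 3 titled BT549 with control siRNA, and the description covers all 17958 genes that a probe with a single gene symbol measured. BT549 is a triple-negative breast cancer line, grown here in RPMI with serum. Both groups were reverse transfected with 10 nM non-targeting siRNA and harvested 96 h later, so both carry the same transfection. The treated group had 1 uM selumetinib for its last 4 h and the control group had DMSO. The groups set beside them were BT549 with the same siRNA and 24 h of selumetinib, BT549 with 10 nM siRNA against DUSP4 and DMSO, and the matching DMSO and 4 h groups of MDA231 and SUM159PT, each of 3 arrays. Nothing states that arrays A, B and C of a group came from different cultures, and their spread, on which every p-value rests, could be technical alone.

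Selumetinib (AZD6244) is an allosteric inhibitor of MEK1 and MEK2, the kinases that phosphorylate and activate ERK. Active ERK drives transcription through serum response factor and its ETS partners, through AP-1 and through other ETS factors, and among the products are inhibitors of the pathway itself. These are the dual specificity phosphatases, of which DUSP4 and DUSP5 act on ERK in the nucleus and DUSP6 in the cytoplasm, and the Sprouty and SPRED proteins, which act between receptor and RAF. Short-lived transcripts of such genes are a common readout of MEK inhibition within hours.

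For 24 of the 36 arrays the title and cell line field name one of BT549 and SUM159PT and the source name and description the other, and these 6 are among them. The titles were followed. RB1, the retinoblastoma tumour suppressor that BT549 is known to have lost, read 6.71 to 7.08 on the log2 scale on the 6 arrays and at most 8.15 on all 12 arrays titled BT549, against 8.97 to 9.55 on the 12 titled SUM159PT and 10.18 to 10.43 on the 12 titled MDA231. CDKN2A, which encodes the CDK inhibitor p16, read 9.70 to 10.07 on the 6 arrays and at most 4.58 and 4.42 in the other lines. The level of the 12 arrays titled BT549 therefore did not overlap with that of either line for both genes. The 6 arrays had upper quartiles of 7.99 to 8.03 and correlated at 0.9954 to 0.9967 within their groups. The MDA231 4 h arrays B and C, with upper quartiles of 7.48 and 7.67, and the BT549 24 h array A, with 7.50, stand apart from these. Many results that rest on them, though not all, are given with and without them below. Without B and C, MDA231 array A is the only 4 h array of its group and is assumed to vary like the other groups. Array A correlated with its group at 0.9876, as did B. The SUM159PT 4 h arrays, with upper quartiles of 7.70 to 7.81 against 7.90 to 7.95 in their controls, were not set apart. Of 13 measured markers of blood and endothelial cells, 12 lay below 5.27, the median of all probe values, in both groups. Their summed signal was 9.77 to 10.05 log2 units in the control arrays and 9.35 to 9.76 in the treated ones, mostly from CD68, which was not called.

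After 4 h, 88 genes were lower and 29 higher than in control BT549 cells. The 4 largest falls were those of SPRY4, CXCL8, DUSP6 and EGR1, each to 28.9% to 33.2% of the control level, and the largest rise of a named protein-coding gene was that of OSR2, to 2.06 times the control. Calls are genes with an adjusted p below 0.05 in limma, after Benjamini-Hochberg adjustment over all genes. The 117 called genes were 0.652% of those tested, 0.49% lower and 0.161% higher. The 3 treated arrays all lay below or all above the 3 control arrays for 3433 genes (19.1%; 11.7% below and 7.38% above). Of the called genes, 87 of the 88 falls and all 29 rises were among them, and the exception was SYT14P1, a pseudogene. The median change of all genes was -0.02, and 9 falls and 2 rises reached 1 log2 unit. In bulk RNA, fewer cells of a kind and less RNA per cell cannot be told apart. With quantile normalization repeated, 303 genes were called and 61.4% of them were lower, against 75.2% here. The number called was 57, 46 and 100 without control array A, B and C, and 61, 55 and 47 without treated array A, B and C, in each case of which 45 to 81 were among the 117.

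**Figure D1:**
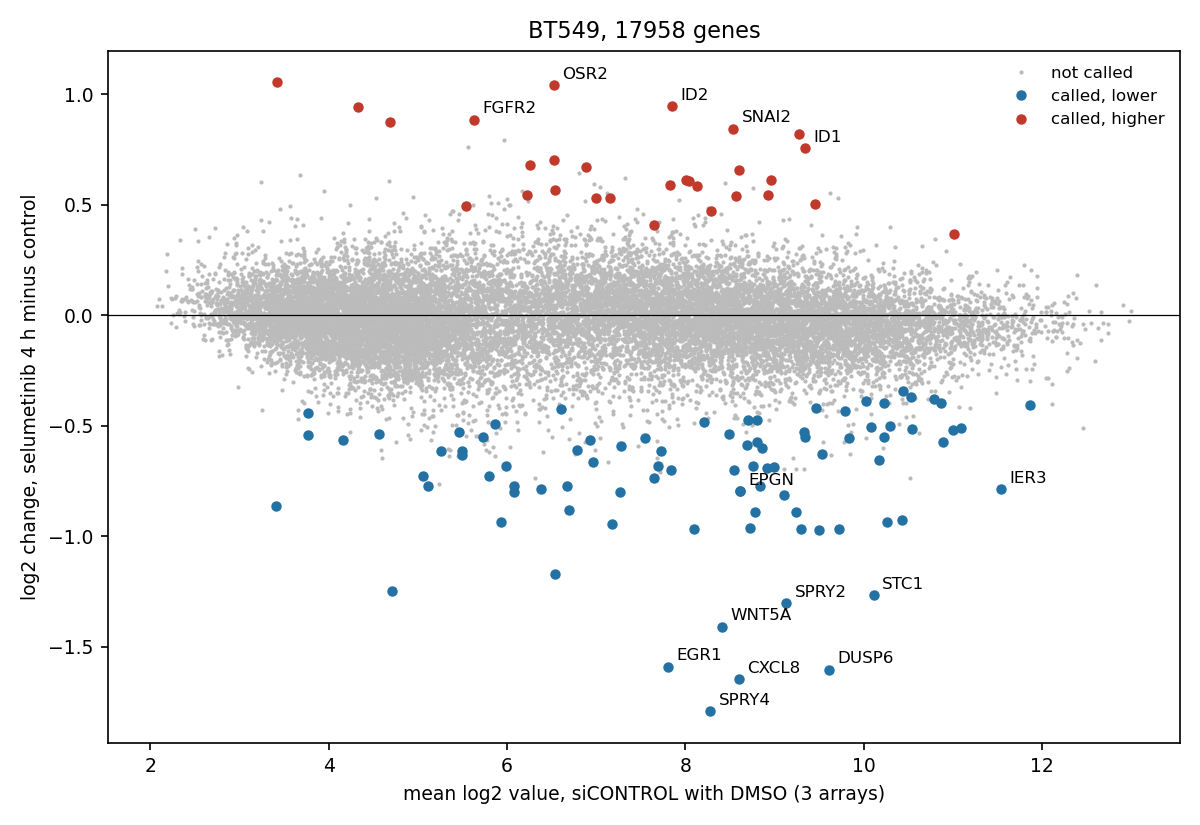
Change after 4 h of selumetinib in BT549 (treated minus control, log2 units) against the mean log2 value of the 3 control arrays, 1 point for each of 17958 genes. The 88 called falls (blue) reach -1.79 at SPRY4 and the 29 called rises (red) reach 1.06, and most genes lie near 0.

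The upstream sequences of the 5 genes of the ERK output lists that fell by at least 1 log2 unit are shown because these falls are the largest response of the pathway in BT549. Each is the 250 bases before the RefSeq transcription start on GRCh38.p14, read along the gene's strand, at chr5:138465229-138465478 (plus strand) for EGR1, chr5:142324248-142324497 (minus) for SPRY4, chr4:73740319-73740568 (plus) for CXCL8, chr12:89352502-89352751 (minus) for DUSP6 and chr13:80341127-80341376 (minus) for SPRY2. Capitals mark matches to 6 motifs on either strand: the CArG box bound by serum response factor, the cAMP response element TGACGTCA, the AP-1 motif TGACTCA or TGAGTCA, the ETS motif CCGGAA, the TATA motif TATAAA and the NF-kB motif. No match overlaps another in these windows. Only these forms were searched, that of NF-kB opening with GGGA, so a site with other letters carries no capitals.
EGR1: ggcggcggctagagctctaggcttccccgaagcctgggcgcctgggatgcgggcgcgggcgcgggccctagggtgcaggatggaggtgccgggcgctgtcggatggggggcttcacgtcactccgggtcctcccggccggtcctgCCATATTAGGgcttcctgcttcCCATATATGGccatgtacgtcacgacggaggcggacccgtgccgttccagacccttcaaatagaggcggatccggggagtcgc
SPRY4: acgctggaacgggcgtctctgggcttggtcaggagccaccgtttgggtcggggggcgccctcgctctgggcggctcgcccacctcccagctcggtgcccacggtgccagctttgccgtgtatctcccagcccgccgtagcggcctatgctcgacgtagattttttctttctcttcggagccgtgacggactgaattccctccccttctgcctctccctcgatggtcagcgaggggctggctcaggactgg
CXCL8: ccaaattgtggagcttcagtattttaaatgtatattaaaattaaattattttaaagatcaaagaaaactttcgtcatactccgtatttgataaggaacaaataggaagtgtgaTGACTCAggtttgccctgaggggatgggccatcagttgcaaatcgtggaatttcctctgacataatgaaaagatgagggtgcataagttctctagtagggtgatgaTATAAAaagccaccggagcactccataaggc
DUSP6: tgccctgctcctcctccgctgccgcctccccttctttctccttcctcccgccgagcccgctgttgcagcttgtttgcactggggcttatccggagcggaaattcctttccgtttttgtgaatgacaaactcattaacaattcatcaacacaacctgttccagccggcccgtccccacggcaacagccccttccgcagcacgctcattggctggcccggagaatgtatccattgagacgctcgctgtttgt
SPRY2: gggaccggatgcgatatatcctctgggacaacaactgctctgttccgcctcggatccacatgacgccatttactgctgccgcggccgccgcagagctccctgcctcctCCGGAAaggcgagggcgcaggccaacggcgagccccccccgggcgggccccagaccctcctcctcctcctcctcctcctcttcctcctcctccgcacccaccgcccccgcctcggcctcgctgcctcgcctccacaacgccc
The EGR1 window holds 2 CArG boxes, CCATATTAGG at -105 to -96 and CCATATATGG at -83 to -74 from the start. The CXCL8 window holds an AP-1 motif at -137 to -131 and a TATA motif at -31 to -26, and that of SPRY2 an ETS motif at -142 to -137. None of the 6 motifs, in the forms searched, is in the windows of SPRY4 and DUSP6. The CXCL8 window also holds tggaatttcc, which differs from the NF-kB form searched in its first base and is not marked. Over the 300 bases from 250 before to 50 after the start, a window was matched for 69 of the 88 falls, 20 of the 29 rises and 13861 of all genes. The AP-1 motif was in 7 of the 69 falls (10.1%), in AMIGO2, CXCL8, EMP1, FOSL2, GTF2H1, KCNJ15 and VEPH1, in 1 of the 20 rises and in 3.56% of all. The ETS motif was in 15 of the falls (21.7%) and in 23.1% of all. A CArG box was in 1 fall, EGR1, and in 1.23% of all. The TATA motif was in 6 of the 20 rises, 7 of the 69 falls and 8.96% of all. The NF-kB motif was in 3 of the 20 rises, 2 of the 69 falls and 4.93% of all. The cAMP response element was in 1 fall, MAFF, and in 2.67% of all. These are matches of letters only, and no difference in their shares was tested.

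Among the inhibitors of the pathway, 2 of 11 DUSP genes and 2 of 7 Sprouty and SPRED genes were lower. SPRY4, a Sprouty protein that restrains signalling from receptors to RAF, read 8.64, 8.13 and 8.08 on control arrays A, B and C and 6.90, 6.79 and 5.78 on the treated ones. DUSP6, the cytoplasmic ERK phosphatase, read 9.64, 9.64 and 9.55 in control and 8.50, 8.16 and 7.36 in treated cells. For SPRY2, another Sprouty protein, the control arrays gave 9.15, 9.20 and 9.06 and the treated ones 8.15, 8.03 and 7.32. In all 3 genes the groups lay apart and treated array C was the lowest. SPRY4 fell by 1.79 (SE 0.22, adjusted p = 1.52e-05), DUSP6 by 1.60 (SE 0.21, adjusted p = 2.8e-05) and SPRY2 by 1.30 (SE 0.20, adjusted p = 0.000408). DUSP5, a nuclear ERK phosphatase, went from 9.73 ± 0.08 to 8.76 ± 0.21 (SD, n = 3 in each group), a fall of 0.97 (adjusted p = 0.000558). These 4 calls remained without any 1 of the 6 arrays.

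DUSP4, the nuclear phosphatase that the study silenced, read 7.03, 7.16 and 7.20 in control and 6.64, 6.48 and 6.28 in treated cells. The groups did not overlap, and the change of -0.66 (SE 0.17) had an adjusted p of 0.0619, just past the threshold. It was called under 5 of 15 alternatives, with adjusted p-values from 0.00906 with array weights to 0.329 without treated array C. Of the 11 DUSP genes measured, 2 were lower and 0 higher, and the median change was -0.06. DUSP1, a phosphatase acting on several MAP kinases, changed by -0.02 (adjusted p = 0.998). Of the 7 Sprouty and SPRED genes, 2 were lower and 0 higher, with a median of -0.41, and 5 had treated arrays all below the controls, as 11.7% of all genes did. SPRY1 stood at 7.79 ± 0.05 and 7.77 ± 0.06 (SD, n = 3 in each group). The cascade itself, with HRAS, ARAF, MAP2K2 (MEK2), MAPK3 (ERK1) and 7 others, had 0 of 11 members called by limma, and its median change was -0.05. The background beside all such counts is 0.49% lower, 0.161% higher, 11.7% with treated arrays all below the controls and a median of -0.02.

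**Figure D2:**
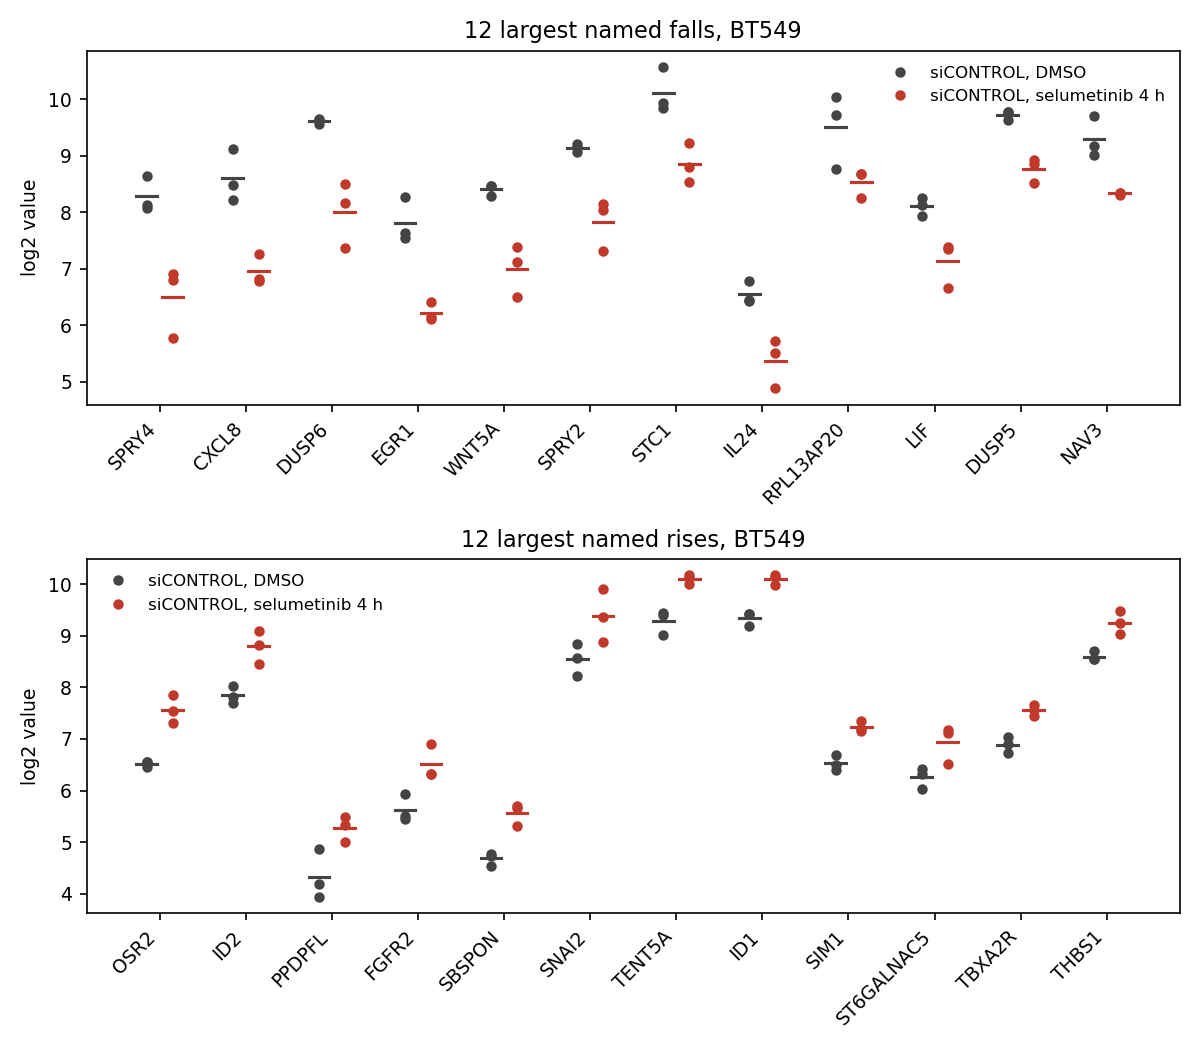
Log2 values on each of the 3 control (grey) and 3 treated (red) arrays of BT549 for the 12 largest named falls (top) and rises (bottom), with group means as lines. The groups do not overlap for any of the 24 genes, which the naming rule required.

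Immediate early genes, transcribed within minutes of ERK activation, were mostly not called. EGR1, a zinc finger factor of this class, read 8.26, 7.54 and 7.62 in control and 6.11, 6.14 and 6.40 in treated cells. It fell by 1.59 (SE 0.17, adjusted p = 1.7e-06), the smallest adjusted p of all genes. IER3, an early gene linked to cell survival, fell by 0.79 from 11.54 ± 0.14 to 10.75 ± 0.37 (SD, n = 3 in each group; adjusted p = 0.0128), a call lost without control array A or B (adjusted p = 0.109 and 0.0613) or treated array C (0.194). The other 20 of 22 members were not called, MYC with a change of -0.21 and MCL1 with -0.36 among them, and the list's median was -0.08.

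Among AP-1 subunits 3 of 11 were lower and 0 higher, with a median of -0.22. FOSL2 read 9.85, 9.79 and 9.88 in control and 9.41, 9.38 and 9.06 in treated cells, a fall of 0.55 (adjusted p = 0.00307). FOSB fell by 0.61 (adjusted p = 0.0156) and MAFF, a small MAF protein that pairs with bZIP factors, by 0.80 (adjusted p = 0.0414). The call of FOSL2 was lost without treated array C (adjusted p = 0.0675), that of FOSB without any array but control array C (up to 0.097) and that of MAFF without any 1 array (up to 0.284). FOSL1 changed by -0.63 and its groups did not overlap, with an adjusted p of 0.0704. FOS itself was at 5.17 in control and changed by -0.43 (adjusted p = 0.322). The count of 3 was 0 without treated array C, 1 without treated array A or B or control array A or B, and 5 with array weights. Of 13 ETS factors 1 was lower and 0 higher (median -0.06): ELK3, a partner of serum response factor, fell by 0.50 (adjusted p = 0.0426), a call lost without any 1 of the 6 arrays (adjusted p up to 0.282). ETV5, a frequent marker of ERK output, changed by -0.49 (adjusted p = 0.236) and ETV4 by -0.21.

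Of the EGF receptor ligands 2 of 7 were lower, and of other outputs of the pathway 6 of 24. Epiregulin (EREG), a ligand of the EGF receptor and ERBB4, read 9.06, 8.73 and 8.55 in control and 8.01, 7.90 and 7.76 in treated cells and fell by 0.89 (SE 0.16, adjusted p = 0.00307). Epigen (EPGN), another EGF receptor ligand, read 8.69, 8.59 and 8.55 in control and 7.92, 7.79 and 7.73 in treated cells and fell by 0.80 (SE 0.11, adjusted p = 3.7e-05). The 2 ligands were the only called ones of 7, and the list's median was -0.19. HBEGF, which is made as a membrane-bound precursor, changed by -0.38 (adjusted p = 0.613). EREG lost its call without control array A (adjusted p = 0.0537). Of 24 other ERK output genes 6 were lower and 0 higher, with a median of -0.36, and 16 had treated arrays all below the controls, against 11.7% of all genes. These were CXCL8, LIF, HMGA2, PHLDA1, TRIB2 and ERRFI1. HMGA2, a chromatin protein of embryonic and tumour cells, fell by 0.68 from 8.75 ± 0.02 to 8.07 ± 0.11 (SD, n = 3 in each group), and ERRFI1, an inhibitor of the EGF receptor, by 0.40 (adjusted p = 0.0209). HMGA2 lost its call without treated array C (adjusted p = 0.0715), ERRFI1 without control array A or B or treated array B or C (up to 0.194), PHLDA1 without control array B or C or treated array C (up to 0.221) and TRIB2 without any array but treated array A (up to 0.317). Without treated array C only 2 of the 24 were called, and 3 without control array B. Over the 106 measured genes of the 8 lists, 18 were lower and 0 higher, with a median of -0.13 against -0.02 for all genes. That count was 9 without treated array C, 11 without control array A or B and 6 when the 12 BT549 arrays were fitted alone.

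Genes of inflammatory signals made the next group of falls. CXCL8, the chemokine interleukin 8 that draws neutrophils, read 9.12, 8.47 and 8.22 in control and 7.26, 6.82 and 6.78 in treated cells. Its fall of 1.65 (SE 0.25, adjusted p = 0.000311) was the second largest of all. Interleukin 24 (IL24) read 6.77, 6.44 and 6.42 in control and 4.88, 5.51 and 5.72 in treated cells. Neither gene had overlapping groups. IL24 fell by 1.17 (SE 0.21, adjusted p = 0.00307), a call lost without treated array A (adjusted p = 0.0598). LIF, a cytokine of the interleukin 6 family, fell by 0.97 from 8.10 ± 0.17 to 7.13 ± 0.41 (SD, n = 3 in each group; adjusted p = 0.0019). IL1B fell by 0.93, CSF3 (granulocyte colony-stimulating factor) by 0.80, PTGS2 (cyclooxygenase 2) by 0.73 and CXCL5 by 0.54. In all 7 of 18 genes in the list of cytokines and chemokines were lower and 0 higher, with a median of -0.17. The list also holds the enzyme PTGS2, and CXCL8 and LIF were counted among the other ERK output genes too. The count of 7 was 4 without treated array A, B or C, though not the same 4 each time. CXCL8 and LIF were called in all 3 of these fits. IL1B lost its call without treated array B (adjusted p = 0.115), CSF3 without control array B or treated array C (up to 0.0841), CXCL5 without control array A or any treated array (up to 0.217) and PTGS2 without any array but control array A (up to 0.295). IL6 was at 10.56 in control and changed by -0.17 (adjusted p = 0.89), and CXCL2 by 0.19. TRAF1, an adaptor induced by NF-kB, fell by 0.80 (adjusted p = 0.021) and was the 1 called gene of 10 in NF-kB feedback. That call was lost without control array A or B or treated array B or C (adjusted p up to 0.147).

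Several large falls belonged to none of the lists. WNT5A, a secreted WNT protein of the non-canonical pathway, read 8.29, 8.47 and 8.47 in control and 7.39, 7.11 and 6.50 in treated cells. STC1 (stanniocalcin 1), a secreted glycoprotein, read 10.57, 9.92 and 9.84 in control and 8.53, 8.80 and 9.22 in treated cells. The fall was 1.41 (SE 0.21, adjusted p = 0.000336) for WNT5A and 1.26 (SE 0.21, adjusted p = 0.00115) for STC1. Both calls remained without any 1 of the 6 arrays. NAV3, a microtubule-associated protein, fell by 0.97. RPL13AP20 also fell by 0.97, but it is a ribosomal protein pseudogene whose probe may read related transcripts. Its control arrays ran from 8.76 to 10.04 and the call was lost without control array A or B or treated array A (adjusted p up to 0.159).

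Chosen after their values were seen, further falls were those of IL13RA2, a decoy receptor for interleukin 13, by 0.96, of EFNB2 (ephrin B2) by 0.95, of EMP1 (epithelial membrane protein 1) by 0.93, of CD274 (PD-L1) by 0.89 and of PDCD1LG2 (PD-L2) by 0.66. CD274 read 9.17, 9.37 and 9.19 in control and 8.16, 8.45 and 8.45 in treated cells (adjusted p = 0.0025), with no overlap. PDCD1LG2 lost its call without control array A or C or treated array B or C (adjusted p up to 0.202). FST (follistatin), which binds activin, fell by 0.88 (lost without control array B or treated array C, adjusted p up to 0.11), and NT5E (CD73), which makes adenosine outside the cell, by 0.51. Both ligands of the PD-1 receptor were thus lower. Of 14 genes of antigen presentation 0 were called by limma. With 0.652% of all genes called, few calls would be counted in a list of this size. CIITA had the smallest p of that list, with a change of -0.35 (adjusted p = 0.236).

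The rises were smaller, and 0 of the 29 was in the 8 lists of the pathway. These lists hold 106 of the 17958 genes, so few of 29 genes would be counted in them in any case. OSR2, a zinc finger transcription factor of limb and craniofacial development, read 6.46, 6.56 and 6.56 in control and 7.55, 7.30 and 7.84 in treated cells and rose by 1.04 (SE 0.14, adjusted p = 3.7e-05). FGFR2, a receptor of fibroblast growth factors, read 5.45, 5.93 and 5.51 in control and 6.32, 6.32 and 6.90 in treated cells, a rise of 0.89 (SE 0.16, adjusted p = 0.0025). It was the 1 called gene of 23 receptor tyrosine kinases and adaptors (median -0.04) and lost its call without treated array C (adjusted p = 0.0565).

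ID1 and ID2, inhibitors of basic helix-loop-helix factors that BMP signals induce, were the 2 called genes of 17 in the TGF-beta, BMP and ID list (median 0.02). ID1 read 9.42, 9.19 and 9.41 in control and 9.98, 10.17 and 10.13 in treated cells, and rose by 0.76 (SE 0.14, adjusted p = 0.00307). ID2 read 8.03, 7.69 and 7.82 in control and 8.45, 8.83 and 9.10 in treated cells, and rose by 0.95 (SE 0.21, adjusted p = 0.0237). The call of ID2 was lost without control array B or C or treated array B or C (adjusted p up to 0.202). ID3 changed by 0.27 and ID4 by 0.02, and SMAD7, an inhibitor of the same pathways, by -0.63 (adjusted p = 0.0614). SNAI2 (Slug), a repressor of E-cadherin, read 8.21, 8.57 and 8.84 in control and 8.89, 9.36 and 9.91 in treated cells. It rose by 0.84 (SE 0.16, adjusted p = 0.00339) as the 1 called gene of 20 mesenchymal and matrix genes (median 0.00), and its lowest treated array lay just above its highest control array. Without control array A or treated array C its adjusted p was 0.0715 and 0.0735.

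Other rises were those of TENT5A, a poly(A) polymerase (0.82), PPDPFL (0.94), SBSPON, a thrombospondin-domain protein of the matrix (0.87), SIM1, a bHLH-PAS transcription factor (0.70), and THBS1 (thrombospondin 1; 0.66). THBS1 read 8.54, 8.55 and 8.70 in control and 9.49, 9.25 and 9.03 in treated cells (adjusted p = 1e-04). ST6GALNAC5, a sialyltransferase, rose by 0.68 and TBXA2R, the thromboxane receptor, by 0.67. ST6GALNAC5 lost its call without control array B or C or treated array B or C (adjusted p up to 0.222) and TBXA2R without any 1 array (up to 0.206). Of the genes outside the naming rule, GAS1, a growth arrest gene, rose by 0.61 and TBX3, a T-box factor, by 0.59, and each lost its call without any array but control array C (up to 0.302). HSPA1A rose by 0.54, but the near-identical HSPA1B may share its probe.

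Lists of cell division and growth held no call. With 0.652% of all genes called, few calls would be counted in lists of this size. By limma 0 of 26 genes of G1/S and DNA replication (median 0.06), 0 of 25 of G2/M and mitosis (median -0.02) and 0 of 11 D cyclins and CDK inhibitors (median -0.13) passed. CCND1 (cyclin D1) went from 9.20 ± 0.08 to 8.81 ± 0.09 (SD, n = 3 in each group; adjusted p = 0.153), with no overlap, and changed by -0.17 with the mean of its probes. CDKN1A, the CDK inhibitor p21, changed by -0.71 (adjusted p = 0.1). In the MYC and ribosome biogenesis list 0 of 18 were called (median -0.18), and DDX21, a nucleolar helicase, changed by -0.30 (adjusted p = 0.0704). The interferon response list had a median of 0.18 over 22 genes, and its 1 called member, IFI44L, fell by 0.48 (adjusted p = 0.0386). VLDLR, the VLDL receptor, was the 1 called of 18 integrated stress response genes and fell by 0.47, and SLC2A3, the glucose transporter GLUT3, the 1 of 17 in glycolysis and hypoxia and fell by 0.73. Each of these 3 lost its call without 3 to 5 of the 6 arrays. No member was called by limma in the lists of FOXO targets, BCL2 family, epithelial genes, proteases, YAP targets, Notch pathway, cholesterol synthesis and circadian clock.

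**Figure D3:**
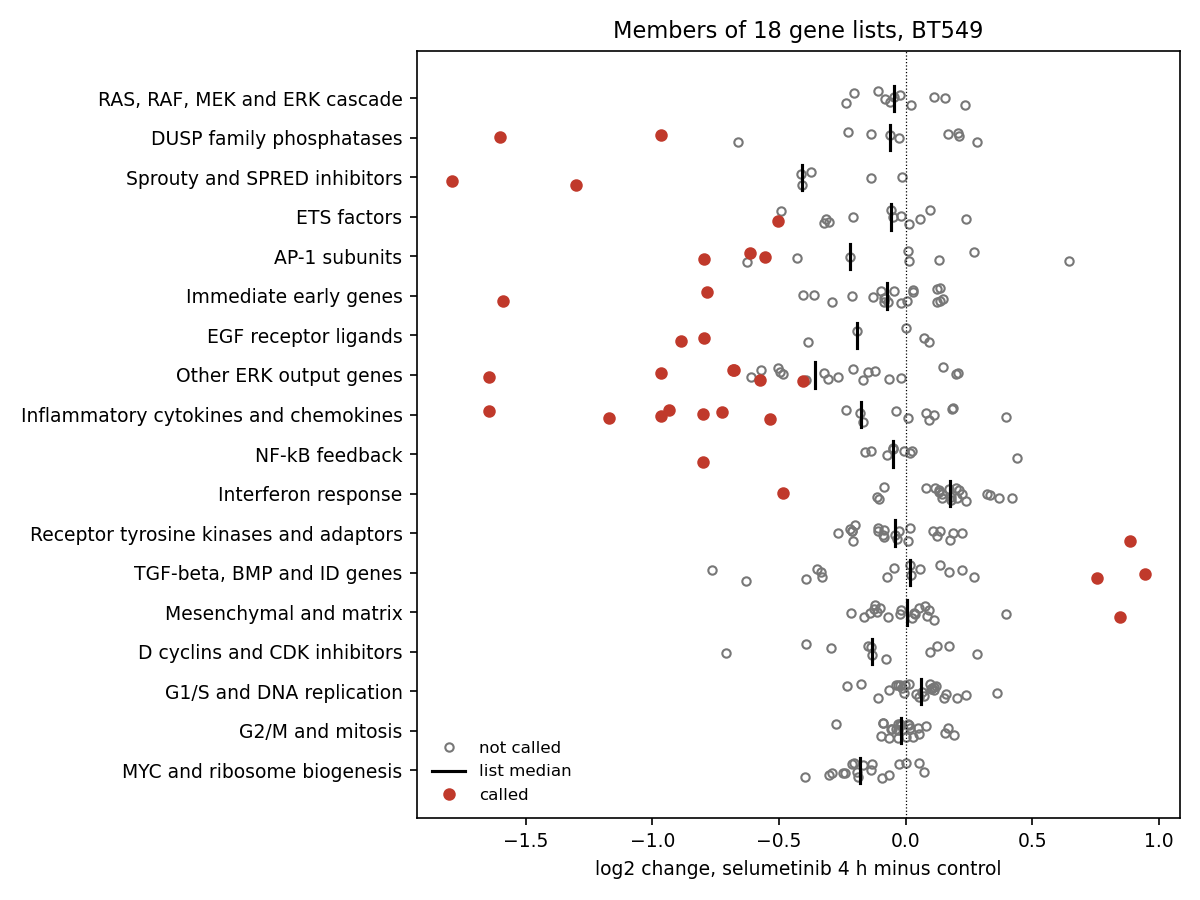
Log2 change after 4 h of selumetinib in BT549 for each measured member of 18 gene lists, with called members filled and the list median as a black line. The called members of the upper 11 lists lie below 0 and those of the receptor, TGF-beta and mesenchymal lists above it.

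Of the 88 falls, 50 (56.8%) were also called lower at 4 h in MDA231 and 34 (38.6%) in SUM159PT. The changes in these lines use none of the BT549 arrays, but their p-values do, because the fit pooled each gene's variance over all arrays. A gene with a small pooled variance is more readily called in every line, so the shared calls are not independent. Without BT549 24 h array A, 29 falls rather than 27 were called in all 3 lines. In that fit 27 rather than 31 were called in neither other line. Of all genes 15.6% were called in MDA231 and 4.28% in SUM159PT, 14.5% and 3.81% as lower. The 50 were 1.93% of the 2598 falls of MDA231 and the 34 were 4.97% of the 684 of SUM159PT. Without the MDA231 4 h arrays B and C, which stand apart, 21 of the 88 were called lower in MDA231, out of 91 genes in all. All 3 lines shared 27 of the falls, and 15 without these arrays. SPRY4, DUSP6, EGR1, CXCL8, DUSP5, EREG and CD274 were among both sets, and SPRY2, STC1, IER3 and EMP1 among the 27 alone. The median change of the 88 was -0.66 in BT549, -0.50 in MDA231 (-0.32 without the 2 arrays) and -0.30 in SUM159PT. Another 31 were called in neither other line, with IL13RA2, EPGN and FOSL2 among them. EPGN lay below the median probe value in both of those lines, so a fall could not be read there.

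Of the 29 rises, 3 were also called higher in MDA231 (ID2, TENT5A and CCN5) and 2 in SUM159PT, where 1.11% and 0.473% of all genes were called higher, and 24 were called in neither. Without MDA231 4 h arrays B and C, 3 were called higher in MDA231 and 23 in neither line. The 2 of SUM159PT were SNAI2 and SNORD14C, a small nucleolar RNA. With quantile normalization repeated, 29 of 117 rises were called in MDA231 and 17 in SUM159PT. The share of all genes called higher in these lines was not counted for that normalization, so these 2 counts have no background. Calls in the opposite direction in MDA231 were PALMD, which fell in BT549 (0.40 in MDA231, adjusted p = 0.0397), and ID1 (-0.64, adjusted p = 0.00223). Without arrays B and C neither was called there, with changes of -0.03 and -0.16. PALMD read 4.03 to 4.83 on all 6 MDA231 arrays, below the median probe value.

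Several of the pathway's inhibitors and early genes fell less in BT549 than in MDA231. On the MDA231 arrays DUSP6 read 11.55, 11.22 and 11.32 in control and 7.35, 6.36 and 6.78 in treated cells, a change of -4.53 against -1.60 in BT549. The difference of the changes was 2.93 (SE 0.29, adjusted p = 2.1e-07), and 2.41 (adjusted p = 0.000238) without MDA231 4 h arrays B and C. SPRY4 differed by 2.52 (2.08 without them), DUSP5 by 1.97 (1.48), EGR1 by 1.74 (1.26), DUSP4 by 1.69 (1.29), EPHA2 by 2.16 (1.68) and HBEGF by 2.54 (1.89), and all were still called without these arrays. All of these genes started higher on the MDA231 control arrays, with overlapping ranges for EPHA2. EGR1 read 9.06 to 9.13 there against 7.54 to 8.26 in BT549 controls. After treatment the ranges of the 2 lines overlapped for EGR1, HBEGF and SPRY4. DUSP6, DUSP5 and EPHA2 then lay lower in MDA231 and DUSP4 higher. How far the starting level sets the difference was not tested. Outside the pathway lists CDC42EP2 differed by 2.28 (1.64 without MDA231 4 h arrays B and C) and NLRP3, an inflammasome sensor, by 2.48 (2.00). NLRP3 read 3.99 to 4.23 on the 6 BT549 arrays, below the median probe value, so a fall like that of MDA231, from 6.87 to 7.27 in control to 4.13 to 5.01, could not be read there. In all 211 genes differed (1.17%), 187 with a positive difference (1.04%), which means a larger rise or smaller fall in BT549, and 24 with a negative one (0.134%). The count was 3714, 90 and 88 without MDA231 4 h array A, B and C and 105 to 131 without control array A or B or 4 h array A or B of BT549 or control array B or C of MDA231. It was 49 without both B and C of MDA231 at 4 h, and the positive share fell from 88.6% to 59.2% in the last and to 74.6% with quantile normalization repeated. In MDA231, 73.6% of all genes were lower after 4 h, and the median difference of all genes was 0.11.

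Against SUM159PT the differences were fewer. DUSP6 read 7.85, 7.85 and 7.89 in control and 4.79, 4.88 and 5.18 in treated SUM159PT cells, and its difference was 1.31 (adjusted p = 0.0364). That call was lost without 10 of the 12 arrays in turn, SUM159PT 4 h array C and BT549 4 h array C being the exceptions (adjusted p up to 0.153). HBEGF differed by 1.34, SPRY1 by 1.06, IL6 by 1.58 and the chemokine CCL20 by 1.64. IL6 differed by 0.96 with the mean of all its probes. CCL20 read 3.96 to 4.40 on the 6 BT549 arrays, below the median probe value, and 6.74 to 7.19 in SUM159PT controls, so a fall in BT549 could not be read. In all 58 genes differed (0.323%), 48 with a positive difference (0.267%) and 10 with a negative one (0.0557%). Of the 113 called with quantile normalization repeated, 73.5% were positive. The count was 38, 34 and 28 without control array A, B and C of SUM159PT, 24 without its 4 h array A and 32 without BT549 control array A.

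**Figure D4:**
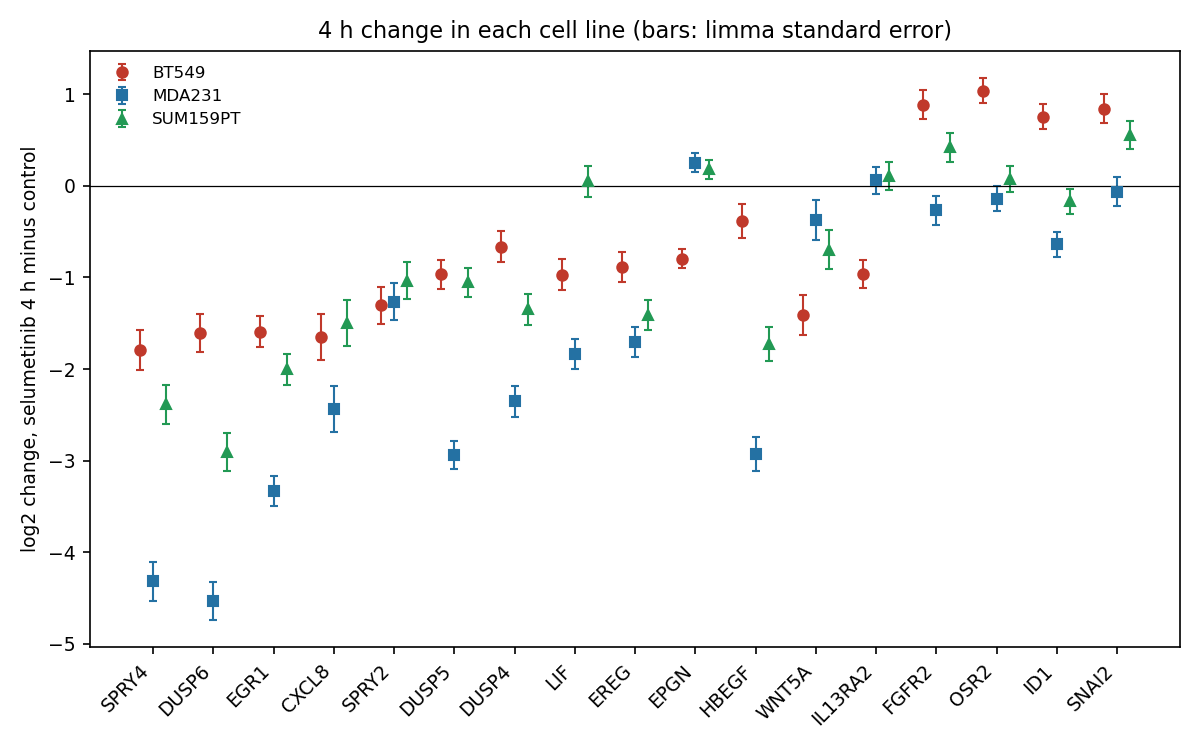
Log2 change after 4 h of selumetinib for 17 genes in BT549, MDA231 and SUM159PT, with limma standard errors as bars. DUSP6 runs from -1.60 in BT549 to -4.53 in MDA231. EPGN and IL13RA2 are below 0 in BT549 alone. EPGN lay below the median probe value in both other lines, so a fall could not be read there. IL13RA2 read only 4.81 to 5.35 in MDA231.

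Other genes fell or rose more in BT549. EPGN was at 3.07 to 3.29 on the control arrays of MDA231 and 3.12 to 3.28 on those of SUM159PT, all below the median probe value of 5.27. A fall of EPGN in those lines could therefore not be read. Its difference was -1.05 from MDA231 (adjusted p = 7.8e-05) and -0.98 from SUM159PT (adjusted p = 0.000935). IL13RA2 differed by -1.07 from SUM159PT, where it read 8.95, 8.97 and 9.09 in control and 8.97, 9.42 and 8.96 in treated cells (adjusted p = 0.0126). That call was lost without BT549 4 h array A or SUM159PT 4 h array B (adjusted p = 0.0653 and 0.0595). ID1 differed by 1.40 from MDA231, where it read 9.93, 10.20 and 10.27 in control and 9.98, 9.18 and 9.33 in treated cells. That difference was 0.91 (adjusted p = 0.0178) without MDA231 arrays B and C, and 0.92 from SUM159PT (adjusted p = 0.0226, lost without 6 of the 12 arrays in turn, up to 0.0975). OSR2 differed by 1.18 from MDA231 (0.79 without the 2 arrays, adjusted p = 0.0745) and 0.97 from SUM159PT (adjusted p = 0.0145, lost without 4 of the 12 arrays in turn, up to 0.087). Of the 29 rises, 14 differed from MDA231, 2 (ID1 and SBSPON) without MDA231 4 h arrays B and C, and 6 differed from SUM159PT, all with a positive difference. Because these genes were chosen for a change in the same BT549 arrays, their differences tend to be overstated.

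At 24 h, 15 of the 29 rises were lower than at 4 h, 7 without the 24 h array A that stands apart, and 4 of the 88 falls were higher. The test of 24 h against 4 h uses the same 4 h arrays that chose the genes, so values at 24 h tend to lie closer to the control. SNAI2 read 8.29, 8.22 and 8.54 on the 24 h arrays A, B and C, back at its control range, and was 1.04 lower than at 4 h (adjusted p = 0.000521). OSR2 read 7.03, 6.88 and 7.23, still above all control arrays, and was 0.52 lower than at 4 h (adjusted p = 0.0233). That call was lost without 4 h array A or C or 24 h array A or B (adjusted p up to 0.139), and the difference was -0.27 with quantile normalization repeated (adjusted p = 0.293). ID1 read 9.82, 10.24 and 10.08, a difference of -0.05 from 4 h. None of the rises was higher at 24 h than at 4 h by limma. Over all genes 5.82% were lower and 1.91% higher with all arrays, and 142 of the 17958 were lower and 136 higher without 24 h array A. Against the controls the median change of the rises was 0.61 at 4 h and 0.26 at 24 h (0.34 without 24 h array A), and that of the falls -0.66 and -0.57 (-0.48).

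SPRY4 read 6.82, 7.79 and 7.45 at 24 h, 0.86 above its 4 h level (adjusted p = 0.0165). DUSP6 read 8.25, 8.97 and 8.74, 0.65 above it (adjusted p = 0.0489). Both stayed below every control array. The SPRY4 call was lost without 4 h array C (adjusted p = 0.138) or 24 h array B (0.0586), and that of DUSP6 without 4 h array B or C or 24 h array B or C (up to 0.336). EGR1 read 5.91, 6.38 and 6.23, a difference of -0.05. Of the 88 falls, 4 were higher at 24 h than at 4 h (SPRY4, DUSP6, MAST4 and CD200R1) and 4 lower (ACP7, ARHGAP29, VEPH1 and VLDLR), of which VLDLR alone was called without each of the 6 arrays in turn. Without the 24 h array A, which stands apart, 11 falls were higher and 2 lower at 24 h, and 7 rises were lower. In that fit 136 of all genes were higher and 142 lower. Over all genes 1389 differed between the times (7.73%), 278 without that array, 2369 without 24 h array C, 474, 502 and 388 without 4 h array A, B and C, and 378 with quantile normalization repeated, where 54.2% were lower against 75.3%.

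**Figure D5:**
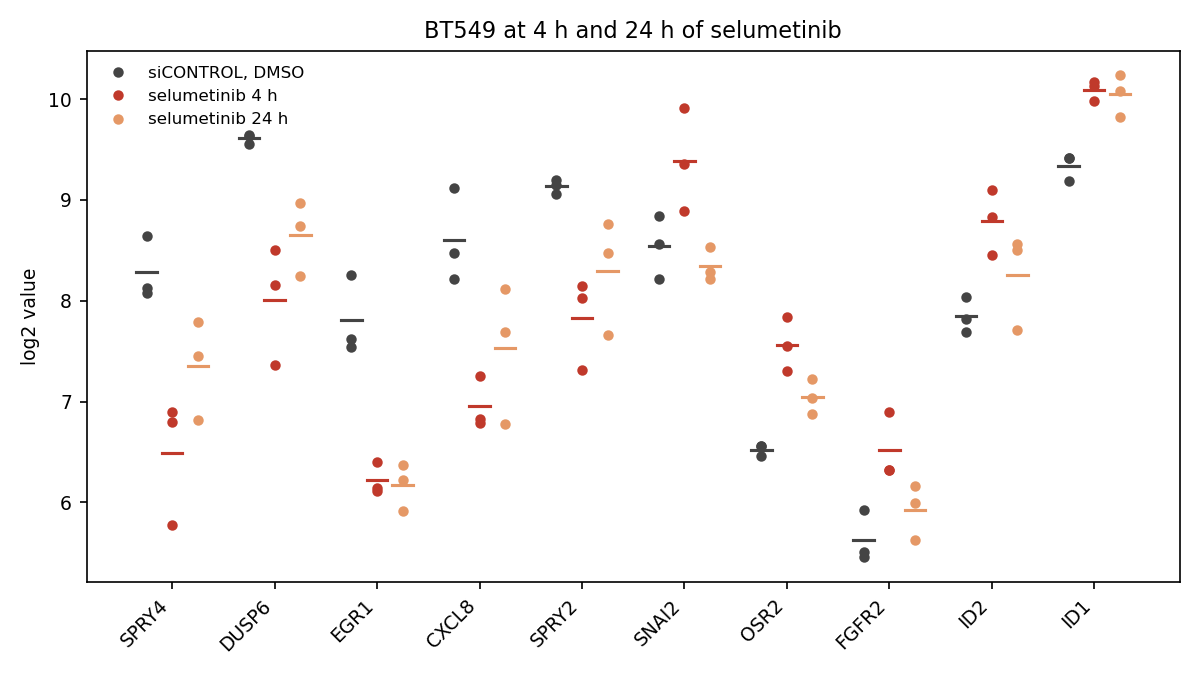
Log2 values in BT549 on each control array (grey), 4 h array (red) and 24 h array (orange) of selumetinib for 10 genes, with group means as lines. SPRY4 and DUSP6 lie higher at 24 h than at 4 h but below the controls, EGR1 is as low at both times and SNAI2 is back in its control range.

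The siRNA against DUSP4 was measured against the same 3 control arrays, so only its own values are set beside these. DUSP4 itself was at -2.24 with the siRNA (adjusted p = 2.8e-11) and at -0.66 after 4 h of selumetinib. EGR1 was at 1.31 with the siRNA (adjusted p = 1.1e-06) and at -1.59 after selumetinib, SPRY4 at 0.61 (adjusted p = 0.0531) and -1.79, and DUSP6 at -0.06 and -1.60.

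Closest to the threshold, PTGS2, EXT1, TBX3 and RNF19B were the last genes called (adjusted p = 0.0487 each) and EEPD1 (0.0505), SLC20A1 (0.0514) and TGFBR2 (0.0524) the first not called.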

How the data were processed

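Total RNA from 3 cell lines was labelled with a whole-transcript sense kit and hybridised to 36 single-colour Affymetrix arrays, per the labels' protocols. RMA, run in Expression Console 1.1 by the authors according to the submitters' processing notes, gave the deposited log2 values. The genome build of the array annotation is not given in the sources used here. Of 33297 probes, 19181 had a single gene symbol, and each of 17958 genes was read from its brightest probe on average, with no filter on dim genes. All 36 arrays entered 1 limma fit (version 3.58.1, R 4.3.3) that gave each of 12 groups its own mean. Variances were moderated with eBayes, with 24 degrees of freedom from the residuals and 7.8 from the prior, and p-values were adjusted by Benjamini-Hochberg with a threshold of 0.05. The fit was tested on simulated data. The number of arrays limits the precision. Promoter sequences are from RefSeq, GRCh38.p14.

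The members and gene lists were chosen with earlier results of these data known, so no list serves as independent support. Of 504 listed genes, 461 were measured, and the others are not analysed here. The genes named are the members of 8 ERK lists, the 12 largest rises and falls among called genes whose groups do not overlap, up to 4 called genes of each other list or else its smallest p, and the 6 largest called differences in each direction between lines and times. Unnamed loci, antisense and small RNAs were passed over. Other genes named, chosen after their values were seen, are said to be so or are given as members of a count. Letters shared by groups did not pair the arrays: the deviations of same-lettered control and treated arrays correlated at -0.16, 0.02 and -0.08. Alternatives were other sets of arrays, a block, 2 normalizations, a dim-gene filter, mean probes, another empirical Bayes setting and array weights. Each array of the groups compared was also left out in turn.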

Additional observations from a re-analysis of the deposited data

Results flagged for a closer look

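For 36 named genes the change after 4 h of selumetinib differed between BT549 and MDA231, and for 19 between BT549 and SUM159PT, each by limma's test of the difference itself with Benjamini-Hochberg adjustment over all genes. Values are the log2 change in BT549 minus that in the other line, so a positive value means a larger rise or smaller fall in BT549. Against MDA231, 19 of the 36 were still called without the MDA231 4 h arrays B and C.

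Of these 19, the phosphatases differed by 2.93 (DUSP6), 1.97 (DUSP5) and 1.69 (DUSP4), and the Sprouty genes by 2.52 (SPRY4) and 0.99 (SPRY1). The EGF receptor ligands differed by 2.54 (HBEGF) and 2.00 (TGFA), the ephrin receptor EPHA2 by 2.16 and the pseudokinase TRIB1 by 1.47. Without the 2 arrays TGFA differed by 1.62 and TRIB1 by 0.835. Early genes differed by 1.74 (EGR1), 1.28 (FOS) and 0.82 (MCL1). NLRP3 differed by 2.48, CDC42EP2 by 2.28, ID1 by 1.40 and SBSPON by 1.00. With a negative sign were ID3 at -1.10, EPGN at -1.05 and PCDH18 at -1.03. ID3 rose by 1.37 in MDA231 and changed by 0.27 in BT549. NLRP3, TGFA and FOS lay below the median probe value of 5.27 on all 6 BT549 arrays, and EPGN and SBSPON on all 6 of MDA231.

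The other 17 lost the call without these 2 arrays. Negative ones were ZNF385D at -1.08, IL13RA2 at -1.02, PALMD at -1.002 and ELF3 at -0.74. Positive ones of the pathway lists were FOSL1 at 1.08, SPRED1 at 0.99, SPRED2 at 0.96, ZFP36L1 at 0.96, MYC at 0.84, ELK3 at 0.70 and KLF6 at 0.64. Genes that rose in BT549 were OSR2 at 1.18, FGFR2 at 1.15, PPDPFL at 0.97, SNAI2 at 0.91, SIM1 at 0.72 and THBS1 at 0.53. ELF3 lay below the median probe value in BT549, and PALMD, SIM1, PPDPFL and FGFR2 in MDA231.

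Against SUM159PT the positive differences were those of the chemokine CCL20 (1.64), IL6 (1.58), the chemerin receptor CMKLR1 (1.51), HBEGF (1.34), DUSP6 (1.31), YPEL2 (1.19), SPRY1 (1.06), OSR2 (0.97), SPRED1 (0.94), ST6GALNAC5 (0.93), ID1 (0.92), THBS1 (0.79) and TENT5A (0.76). Negative ones were EDN2 (-1.21), VEPH1 (-1.17), C1QTNF9 (-1.09), IL13RA2 (-1.07), ACP7 (-1.03) and EPGN (-0.98). HBEGF, IL6, CCL20, CMKLR1, YPEL2, SPRY1, THBS1 and EPGN kept their call under all alternatives run for them, and ST6GALNAC5 under 6 of 21. For IL6 the value was 0.96 with the mean of all its probes. CCL20, CMKLR1, YPEL2 and C1QTNF9 lay below the median probe value on all 6 BT549 arrays, and VEPH1, ACP7, EPGN and C1QTNF9 on all 6 of SUM159PT.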

How the results depend on the processing

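No called change after 4 h reversed under the alternatives run, and 19 of the 117 genes kept their call under all of them, 14 falls (C1QTNF9, CD274, CXCL8, DUSP5, DUSP6, EFNB2, EGR1, EMP1, ENTPD7, EPGN, IL13RA2, MAST4, SPRY4 and WNT5A) and 5 rises (ID1, OSR2, SBSPON, SIM1 and TENT5A). C1QTNF9, EPGN, SBSPON and SIM1 were too dim to enter the fit without dim genes. The 117 calls became 24 with the BT549 arrays fitted alone, 303 with quantile normalization repeated, 862 with array weights and 46 to 100 without any 1 array. The 211 differences from MDA231 became 74 with the arrays of both lines only, 34 with the groups of the contrast only, 334 with quantile normalization repeated, 322 with trend and robust eBayes, 84 with array weights, 88 to 3714 without any 1 array and 49 without MDA231 4 h arrays B and C together, an alternative chosen after seeing the data. For SUM159PT the 58 differences became 142, 395, 113 and 902 with the arrays of both lines only, the groups of the contrast only, quantile normalization repeated and array weights, and 24 to 59 without any 1 array. The 1389 differences between 24 h and 4 h became 529 with the BT549 arrays alone, 378 with quantile normalization repeated, 2429 with array weights and 278 to 2369 without any 1 array, and their share of higher genes was 4.98% without dim genes. With the groups of that contrast only limma called 0, with 2842 genes at an unadjusted p under 0.05. The fits with fewer arrays estimate the spread from fewer samples. The cause of the other shifts was not tested, and the array weights gave a convergence warning.

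With the replicate letter within each line as a block, 97 genes were called after 4 h (90 of the 117), 202 and 62 differed from MDA231 and SUM159PT, and 1435 differed between the times. The letters did not pair the arrays, and each count stayed within 1.5 times the main one. Aligned medians, mean probes and the fit without dim genes also kept the counts within that range. For genes near the background on these arrays a fold change is compressed.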
